A study of Mus musculus with 15 samples.

Results

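The 10 genes followed here put methyl groups on cytosines of DNA, guard them or remove them, and were taken by symbol from the 55401 genes counted in each library. They are the methyltransferases Dnmt1, Dnmt3a and Dnmt3b, the cofactors Dnmt3l and Uhrf1, the protective factors Dppa3 and Zfp57, and the dioxygenases Tet1, Tet2 and Tet3. All 10 matched 1 identifier each, and all 10 were among the 21009 genes that passed the filter on low counts.

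The data come from Kunming mice, given in the labels as 12 to 14 days old, in 15 libraries of 5 groups of 3. The study's methods state this age for the mice whose follicles were cultured, and do not clearly state it for the IVV donors. A difference in donor age thus cannot be told apart from culture. Each library was amplified with SMART-Seq2 from a pool of 6 oocytes, which were at the germinal vesicle stage by the study's methods. Oocytes grown in vivo (IVV) were collected by puncture of antral follicles. The other oocytes came from preantral follicles grown in vitro for 10 days without (IVG) or with neurotrophin-4 (IVG-NT), or for 6 days without (IVG day 6) or with it (IVG-NT day 6). NT-4 is a neurotrophin that signals through the receptor TRKB. The 4 in vitro groups share the culture system, so a difference from IVV cannot be told apart from any other difference between a dish and an ovary. The labels number the IVV libraries 2, 3 and 4, whereas their deposited count tables carry the numbers 1, 2 and 3, so their numbers are in doubt. The groups were drawn from replicated experiments by the study's methods, which do not say whether the 6 oocytes of a pool came from 1 mouse.

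As background, the growing mouse oocyte builds its DNA methylation anew after that of the germ line has been erased. DNMT3A with its catalytically inactive partner DNMT3L lays down most of this pattern, on transcribed gene bodies and on maternally imprinted regions, while DNMT1 copies methylation onto the new strand after replication and is guided there by UHRF1. DPPA3, also called STELLA or PGC7, and ZFP57 protect methylation from loss after fertilization. TET proteins oxidize 5-methylcytosine, and TET3 is the form known for acting in the zygote. The transcripts of most of these genes are stored in the oocyte for use by the egg and the embryo.

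Gene counts add up all transcripts of a gene, and several of these genes have more than 1 start in RefSeq. The 250 bases before 4 of these starts are shown in the direction of transcription. Dnmt1 is shown because its counts pool several starts, and Uhrf1 and Zfp57 because the results below turn on them. They come from RefSeq on GRCm38.p6 and hold no annotated exon base. Capitals mark each CG dinucleotide, the site that these enzymes act on.
Dnmt1 first start (chr9:20959889-20960138, minus strand): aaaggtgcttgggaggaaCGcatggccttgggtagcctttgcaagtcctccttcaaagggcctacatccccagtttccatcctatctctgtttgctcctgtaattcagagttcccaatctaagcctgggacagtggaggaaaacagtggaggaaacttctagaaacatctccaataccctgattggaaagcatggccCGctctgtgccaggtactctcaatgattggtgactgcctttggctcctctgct
Dnmt1 second start (chr9:20952980-20953229, minus strand): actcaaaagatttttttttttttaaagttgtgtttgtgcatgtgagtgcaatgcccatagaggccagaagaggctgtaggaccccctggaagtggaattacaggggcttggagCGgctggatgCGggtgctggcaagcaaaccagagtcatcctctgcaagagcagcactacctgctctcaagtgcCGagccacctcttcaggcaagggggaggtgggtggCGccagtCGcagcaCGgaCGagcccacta
Uhrf1 second start (chr17:56304063-56304312, plus strand): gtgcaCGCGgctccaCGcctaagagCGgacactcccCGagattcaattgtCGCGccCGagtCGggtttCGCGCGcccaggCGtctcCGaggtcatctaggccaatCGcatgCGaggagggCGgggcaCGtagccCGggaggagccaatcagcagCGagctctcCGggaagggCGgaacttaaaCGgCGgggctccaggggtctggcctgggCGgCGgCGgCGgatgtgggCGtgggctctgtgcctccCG
Zfp57 first start (chr17:37000913-37001162, plus strand): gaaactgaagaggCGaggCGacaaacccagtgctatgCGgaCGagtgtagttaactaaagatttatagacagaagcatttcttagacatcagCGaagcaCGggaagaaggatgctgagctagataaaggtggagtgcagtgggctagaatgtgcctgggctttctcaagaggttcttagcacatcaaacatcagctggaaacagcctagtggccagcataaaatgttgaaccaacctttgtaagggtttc
The first Dnmt1 window holds 2 CG dinucleotides and the second 7, the Uhrf1 window holds 30, and the Zfp57 window holds 6. The median of 32851 RefSeq windows of this length is 6, and 5.9% of them hold at least as many as the Uhrf1 window, 46.3% as the second Dnmt1 window, 50.4% as the Zfp57 window and 81.2% as the first Dnmt1 window. The dinucleotide CG was counted on 1 strand, since it reads the same on both. Of the 10 genes, 9 had a window, 18 windows in all. No methylation was measured in these libraries, so the windows describe the genome and not its state.

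Total counts ranged from 5954262 to 55593251 per library and genes with a count from 10991 to 22966. IVG-NT day 6 replicates 1 and 2 were shallow, with 5954262 and 7125348 counts and 13338 and 10991 genes. Libraries were of 2 kinds. In 9 of them, called rRNA-rich, 12.5% to 37.9% of all counts fell on the rRNA gene CT010467.1, and in the 6 called rRNA-poor the share was 0.187% to 0.714%. In the culture groups replicate 3 was rRNA-poor and the others rRNA-rich, whereas in IVV it was replicate 3 that was rRNA-rich. All 13 oocyte markers had a count in every group, with summed levels of 15394 to 30100 normalized CPM (counts scaled to a common library size). Their sum was 20414 or more in all IVG day 6 libraries and lower in all the others. The 14 granulosa and cumulus markers summed to 265 to 1507 normalized CPM, with Amh at 0 in IVG and both NT-4 groups and Wt1 at 0 in IVG. The 7 theca and stroma markers summed to 0 to 25.2 and the 7 macrophage and blood markers to 0 to 53.1 normalized CPM. The part of these levels in the results below was not tested.

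Several of the 10 genes differed between the kinds of library. Dnmt1 lay at 2526 to 4288 normalized CPM among the 9 rRNA-rich and at 584 to 1064 among the 6 rRNA-poor libraries. Dppa3 went the other way, with 341 to 915 where rRNA was high and 3945 to 8877 where it was low. These 2 of the 10 genes did not overlap between the kinds, 1 above beside 2.88% of the genes tested and 1 below beside 10.3%. On the log2 scale the rRNA-rich libraries differed from the rRNA-poor by 1.97 ± 0.17 (SE) for Dnmt1, 2.08 ± 0.33 for Dnmt3a, 1.5 ± 0.32 for Tet3, 2.98 ± 0.58 for Zfp57 and -3.44 ± 0.22 for Dppa3, where the median of all genes tested was -0.54. Dnmt3b, Dnmt3l and Uhrf1 differed by -0.40 ± 0.89, -0.46 ± 0.42 and 0.57 ± 0.43. Dppa3 is also the shortest of the 10 (892 bases of exon), and over the 10 genes the difference between kinds had a Spearman rho of 0.46 with exon length. Over all genes tested the rho was 0.47, with all points from the same 15 libraries. A fold change between groups is therefore given below together with the values within each kind.

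**Figure D1:**
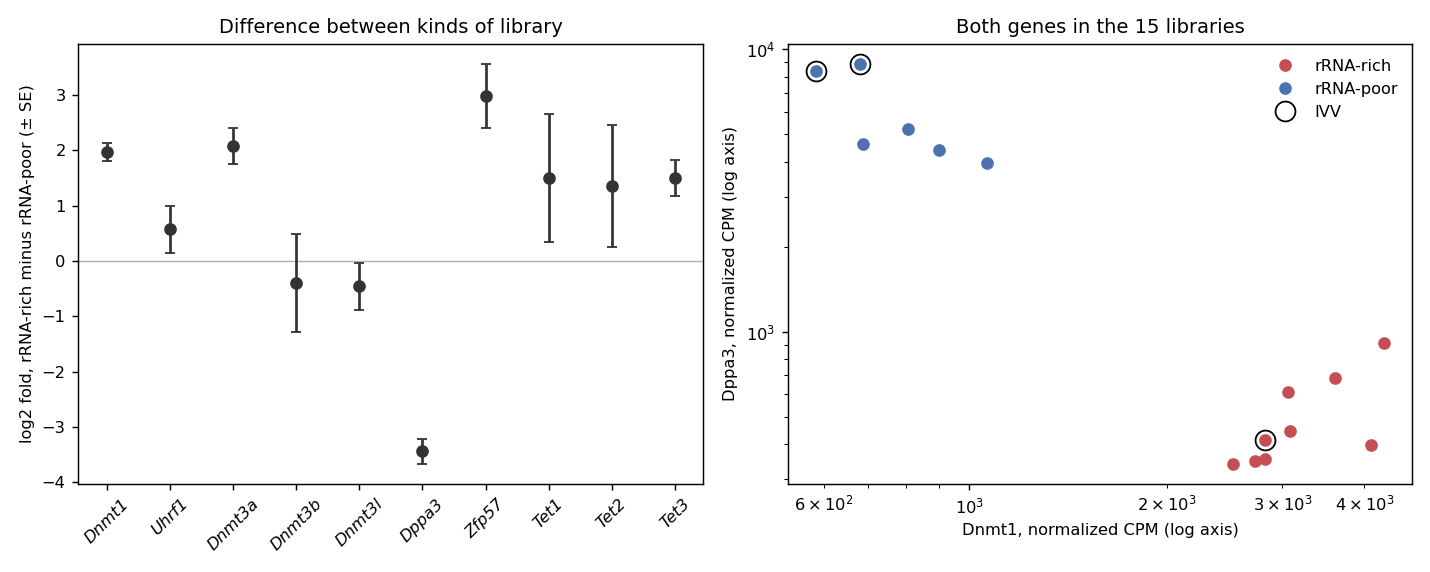
The left panel plots, for each of the 10 genes, the fitted log2 difference of 9 rRNA-rich minus 6 rRNA-poor libraries with its SE. The right panel plots Dppa3 against Dnmt1 in normalized CPM on log axes, 1 point per library coloured by kind and ringed for IVV. Dnmt1 is at 584 to 1064 and Dppa3 at 3945 to 8877 in the rRNA-poor cloud, where both ringed IVV libraries have the highest Dppa3.

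On the FPKM scale, which divides by exon length and library total, Dppa3 was the most abundant of the 10 in 13 libraries, and Dnmt1 and Zfp57 were each first in 1. Mean Dppa3 in IVV was 7391 ± 6057 FPKM (SD, n = 3) and mean Dnmt1 was 175 ± 136. Among the TET genes, Tet3 averaged 48.8 ± 18.4 FPKM in IVV, Tet1 0.408 ± 0.458 and Tet2 0.164 ± 0.0662. Tet3 was the most abundant TET gene in all 15 libraries. Dnmt3a averaged 9.68 ± 9.41 FPKM in IVV, Dnmt3b 2.56 ± 0.71 and Dnmt3l 23.0 ± 3.18, so that the cofactor Dnmt3l had the higher mean level per length. In IVV replicate 3 the 2 were close, with 19.4 FPKM for Dnmt3l and 20.5 for Dnmt3a. The large SDs of Dppa3, Dnmt1 and Dnmt3a in IVV rest on replicate 3, the rRNA-rich library.

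**Figure D2:**
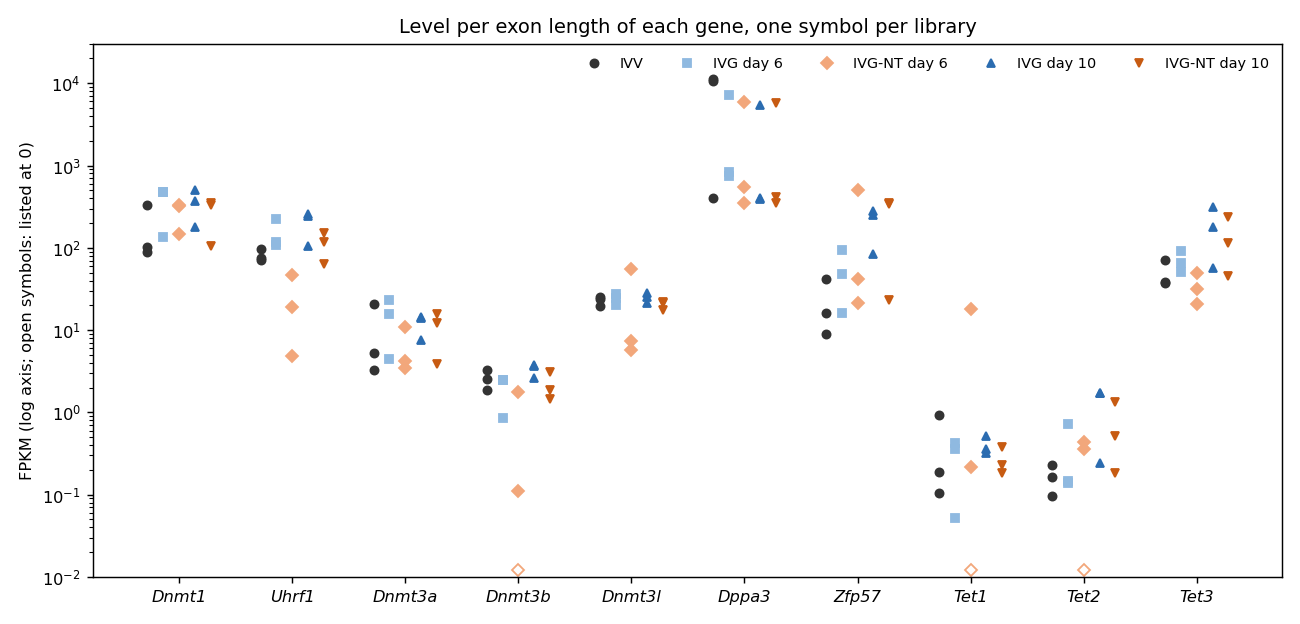
FPKM (counts scaled for exon length and library total, log axis) of the 10 genes, 1 symbol per library and a colour and shape per group, with open symbols for libraries listed at 0. Dppa3 lies at the top in 13 libraries, and the lone Tet1 symbol at 17.8 is IVG-NT day 6 replicate 2, where Tet3 is at 21.0.

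Uhrf1 was at its lowest in the 3 IVG-NT day 6 libraries, and Zfp57 and Tet3 were higher in IVG than in IVV. A gene is called here where the log2 fold change is beyond 1 and the unadjusted P of edgeR's quasi-likelihood test is under 0.05. No call in the main edgeR fit held an adjusted p under 0.05. By this rule for calls, 2 of the 10 genes were called in IVG against IVV, both higher (Tet3 and Zfp57). Of all genes tested, 2.76% were called (0.842% higher). In IVG-NT against IVV it was 1 gene, higher, beside 3.29% (0.624% higher). In IVG-NT against IVG none of the 10 was called by edgeR or DESeq2, beside 1.24% of all genes by edgeR and 153 of 21009 by DESeq2. None had an unadjusted P under 0.05 by either tool, but DESeq2 gave 1 of the 10 (Tet1) no P in any comparison. The log2 differences by edgeR lay between -0.71 and 0.43 with SEs of 0.71 to 1.62. Such SEs leave room for differences of more than 2-fold in every one of the 10 genes at day 10.

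On day 6, IVG-NT against IVG day 6 gave 1 higher (Tet1) and 1 lower (Uhrf1) of 10, beside 11.6% of all genes (6.74% higher and 4.83% lower) by edgeR. DESeq2 called Uhrf1 and Zfp57 there, beside 2638 of 21009 genes, and gave Tet1 no P. Day 10 against day 6 gave 0 of 10 in control culture by edgeR, beside 2.90% of all genes. By DESeq2 it was also 0, with no P for Tet1, beside 592 of 21009 genes. Neither tool gave an unadjusted P under 0.05. In NT-4 culture, day 10 against day 6 gave 2 higher and 1 lower by edgeR, beside 12.7% (5.45% higher and 7.21% lower). Both day 6 groups together gave 0 of 10 against IVV by edgeR, with no unadjusted P under 0.05, beside 7.90%. DESeq2 called 1 there (Zfp57), beside 1468 of 21009 genes. The test of the NT-4 difference between days called 2 of 10, 1 in each direction, beside 6.37% (2.09% higher and 4.28% lower). Libraries did not overlap for 1 gene above in IVG against IVV (5.35% of all genes), for 1 below in IVG-NT day 6 against IVG day 6 (7.44%), for 1 above over time in control culture (4.47%) and for 1 above over time in NT-4 culture (9.74%). Those 4 cases are Zfp57, Uhrf1, Dnmt3b and Uhrf1.

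Maintenance of methylation was represented by Dnmt1 and Uhrf1. Dnmt1 (chr9:20907209-20959888, GRCm38, minus strand), the maintenance methyltransferase, was at 681, 2828 and 584 normalized CPM in IVV replicates 2, 3 and 4. IVG gave 4100, 2722 and 1064 and IVG-NT 3079, 2825 and 690. IVG day 6 gave 3608, 4288 and 808, and IVG-NT day 6 gave 2526, 3065 and 899. In every in vitro group replicate 3, the rRNA-poor library, was the low one, and all groups overlapped. Dnmt1 was called in no comparison. Among the rRNA-poor libraries alone, all 4 cultured ones (690 to 1064) lay above both IVV libraries (584 and 681), a pattern of 9.49% of the genes tested. Its mean there was 1.37-fold that of IVV.

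Uhrf1 (chr17:56303321-56323486, plus strand) encodes the protein that recognizes half-methylated DNA and recruits DNMT1. In IVG-NT day 6 it was at 87.3, 25.4 and 161 normalized CPM, from 483, 146 and 9903 counts. IVG day 6 had 988, 563 and 412, IVG had 1226, 1016 and 363, IVG-NT had 608, 745 and 247, and IVV had 271, 481 and 282. All 3 IVG-NT day 6 libraries lay below all 12 others, which held for 2.26% of the genes tested. Fewer cells with the transcript and less of it per cell cannot be told apart in pooled oocytes.

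In NT-4 culture on day 6, Uhrf1 differed from control culture by -2.84 ± 0.76 (SE) on the log2 scale, 7.16-fold lower with no overlap (edgeR quasi-likelihood test, adjusted p = 0.381). The difference was 13.8-fold between the rRNA-rich libraries (means of 56.3 and 776) and 2.56-fold between the single rRNA-poor ones (161 and 412). Leaving out any 1 library kept the call, with log2 values of -3.55 to -2.34. Without both shallow libraries it was -1.93 and the call was lost. By DESeq2 the log2 difference was -2.43 ± 0.75 (adjusted p = 0.0334). In edgeR's main fit and DESeq2's test, no other adjusted p of the 10 genes was under 0.05. This does not extend to the alternative fits. With no filter on low counts, Uhrf1 had an unadjusted P of 0.000546 by edgeR's quasi-likelihood test. There 881 of 36497 genes had an adjusted p under 0.05.

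Between day 6 and day 10 of NT-4 culture, Uhrf1 rose by 2.54 ± 0.75 on the log2 scale, 5.83-fold, again with no overlap (adjusted p = 0.357). Without both shallow libraries the log2 difference was 1.61 and not called, and between the rRNA-poor libraries it was from 161 to 247, or 1.53-fold. In control culture the day 10 libraries overlapped those of day 6, with a log2 difference of 0.41 ± 0.71. At day 10 the NT-4 libraries overlapped the controls, with a log2 difference of -0.70 ± 0.71 (adjusted p = 1), and each was lower than the control of its number (608 and 1226, 745 and 1016, 247 and 363). The NT-4 difference at day 10 minus that at day 6 was 2.14 ± 1.01 (adjusted p = 0.779), and it kept its call in 4 of the 12 fits that each left out 1 library. With the replicate number as a block in the culture groups it was 2.0 and not called.

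De novo methylation was represented by Dnmt3a, Dnmt3b and Dnmt3l, none of which was called in any comparison. Dnmt3a (chr12:3806007-3914443, plus strand), the main de novo enzyme of the oocyte, ranged from 46.7 to 464 normalized CPM over the 15 libraries. Its 6 rRNA-poor libraries lay at 46.7 to 100 and its 9 rRNA-rich ones at 75.5 to 464. Dnmt3b (chr2:153649450-153687730, plus strand), the other de novo enzyme, ranged from 0 to 19.4 normalized CPM. It had 0 and 4 counts in the shallow IVG-NT day 6 libraries and 458 in the deep one. In a library of that depth a count of 0 allows up to 3 counts, or 0.504 CPM, and this limit covers counting error only. The 3 IVG libraries (14.9, 18.4 and 15.5) lay above the 3 IVG day 6 libraries (13.0, 5.35 and 10.4), with a log2 difference of 0.76 ± 1.26 (adjusted p = 1).

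Dnmt3l (chr10:78041947-78063622, plus strand), the cofactor without catalytic activity, lay in all 12 libraries outside IVG-NT day 6 between 57.3 and 76.6 normalized CPM, with both kinds of library in that range. IVV had 64.3, 66.9 and 67.2, a mean of 66.1 ± 1.63 (SD, n = 3). IVG-NT day 6 had 18.4, 27.0 and 137, so the 2 shallow libraries lay below and the deep one above all the others. Aire, on the opposite strand, shares 67 exon bases with Dnmt3l and had 13.3% of its counts, and the strand setting of the counting is not given in the sources used here.

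Among the protective factors, Dppa3 (chr6:122626410-122630272, plus strand), which keeps the maternal genome from losing methylation and limits UHRF1 in oocytes, had 8877, 414 and 8392 normalized CPM in IVV. IVG had 397, 347 and 3945, IVG-NT had 444, 355 and 4638, IVG day 6 had 686, 915 and 5209, and IVG-NT day 6 had 341, 611 and 4385. In each group the rRNA-poor libraries lay far above the rRNA-rich ones, and the groups overlapped. The log2 difference was -1.92 ± 1.33 for IVG against IVV and -1.70 ± 1.32 for IVG-NT against IVV, and neither was called. Both were called lower with no filter on low counts (-1.91 and -1.72) and with the replicate block over all 15 libraries (-2.97 and -2.80). Replicate 3 is rRNA-rich in IVV and rRNA-poor in the cultures, and the IVV numbers are in doubt. That block thus does not separate culture from the kind of library. In the rRNA-poor libraries alone, with 1 library per culture group, the values were -1.10 and -0.86.

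Within the rRNA-poor libraries, Dppa3 was at 8392 and 8877 in IVV and at 3945 to 5209 in the 4 cultured ones. IVV had the higher mean by 1.90-fold with no overlap, a pattern that 16.9% of the genes tested showed. The 1 rRNA-rich IVV library (414) lay inside the 8 cultured rRNA-rich ones (341 to 915). A fit that adjusted for the kind gave log2 differences of -0.86 ± 0.33 for IVG and -0.71 ± 0.33 for IVG-NT against IVV, both with an unadjusted P under 0.05 but under the fold limit of the calls (adjusted p = 1 for both). Without IVG replicate 3, its only rRNA-poor library, the fit without the kind gave -3.99, and without IVG-NT replicate 3 it gave -3.89 for the second, and both were then called. From day 6 to day 10 of control culture the difference was -0.54 ± 1.29, and -0.91 ± 0.31 with that adjustment (adjusted p = 0.965). The rRNA-rich libraries went from 686 and 915 to 397 and 347 and the rRNA-poor one from 5209 to 3945.

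Zfp57 (chr17:37001163-37010635, plus strand), a zinc finger protein that holds methylation on imprinted regions, had 55.2, 181 and 29.6 normalized CPM in IVV. IVG had 1160, 925 and 254 and IVG-NT 1521, 1541 and 80.2. IVG day 6 had 189, 438 and 49.8, and IVG-NT day 6 had 168, 2389 and 65.4. All 3 IVG libraries lay above all 3 IVV libraries, as in 5.35% of the genes tested, whereas IVG-NT replicate 3 lay below IVV replicate 3.

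Zfp57 was higher in IVG than in IVV by 3.14 ± 1.30 on the log2 scale, 8.80-fold (adjusted p = 1). The difference was 5.76-fold between the rRNA-rich libraries and 5.99-fold between the rRNA-poor ones, and 2.27 ± 0.77 on the log2 scale with the kind in the fit. The call was lost without IVV replicate 2 (2.90), IVV replicate 4 (2.73) or IVG replicate 1 (2.72) and in the rRNA-rich libraries alone (2.55). It was also lost under a replicate block over all 15 libraries (1.16), although replicate 3 is rRNA-rich in IVV and rRNA-poor in the cultures. In IVG-NT the gene was higher than in IVV by 3.56 ± 1.33, 11.8-fold (adjusted p = 1). Here the rRNA-rich libraries differed 8.45-fold and the rRNA-poor ones 1.89-fold, the difference was 2.12 ± 0.81 with the kind in the fit, and the call was lost without IVV replicate 2 (3.32) or 4 (3.15). It was also lost in the rRNA-rich (3.11) and the rRNA-poor libraries alone (0.95) and with that block (1.13). Both comparisons use the same 3 IVV libraries.

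From day 6 to day 10 of control culture, Zfp57 differed by 1.79 ± 1.24 on the log2 scale. The main fit did not call it. With the replicate number as a block in the culture groups, the difference was 2.18 and Zfp57 was called, beside 484 of 19272 genes. It was also called with the kind in the fit (2.0 ± 0.75, edgeR quasi-likelihood test, adjusted p = 0.965), beside 1022 of 21009 genes. Replicate 3 is the rRNA-poor library in every culture group, so both adjustments take out the kind and are not separate evidence. Each replicate rose, from 189 to 1160, from 438 to 925 and from 49.8 to 254. In NT-4 culture, where same-numbered libraries had 168 and 1521, 2389 and 1541, and 65.4 and 80.2, the difference was 0.26 ± 1.20. On day 6, Zfp57 differed between NT-4 and control culture by 1.95 ± 1.24, 3.87-fold, which edgeR did not call (adjusted p = 0.534) and DESeq2 did (2.49 ± 1.26, adjusted p = 0.303).

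**Figure D3:**
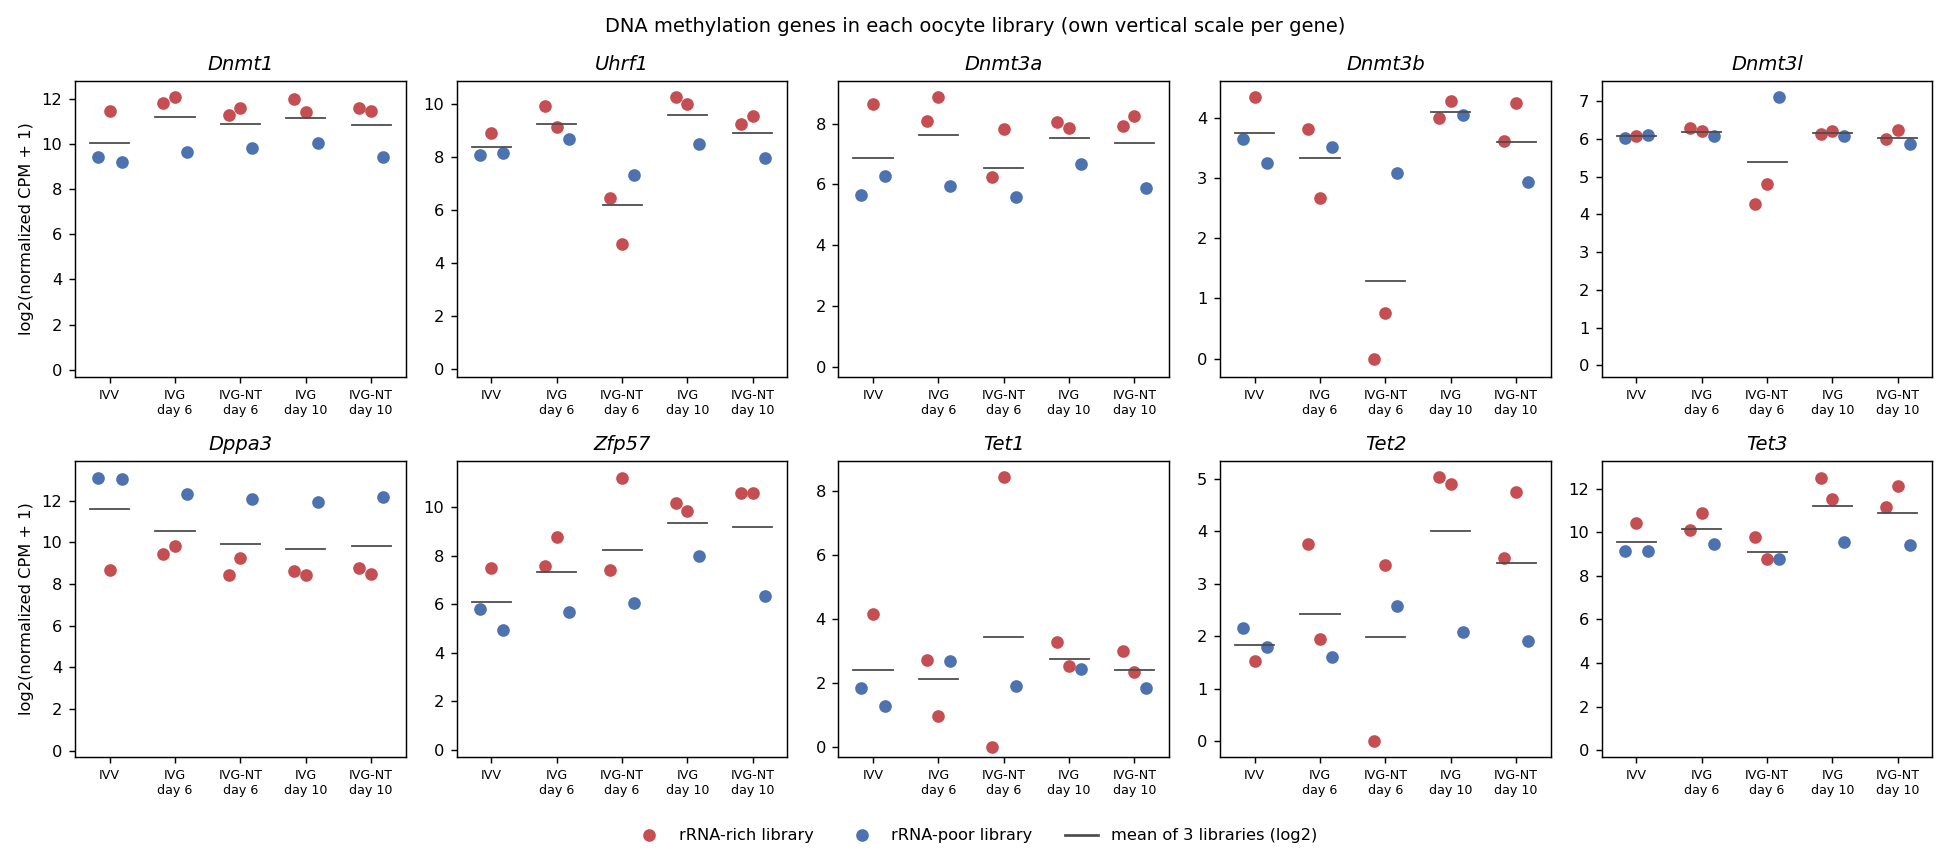
Normalized CPM on a log2 scale (value + 1) of each gene in each library, by group, with the 3 replicates of a group side by side in the order of their numbers, the rRNA-rich libraries in red, the rRNA-poor in blue and a line at the mean. Uhrf1 is low in all 3 IVG-NT day 6 libraries, Zfp57 and Tet3 are high in the rRNA-rich day 10 libraries, and Dppa3 is high in the rRNA-poor libraries of every group.

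Of the erasers, Tet3 (chr6:83362373-83459084, minus strand), the TET enzyme stored by the oocyte, had 564, 1350 and 570 normalized CPM in IVV. IVG had 5800, 2905 and 756 and IVG-NT had 2251, 4498 and 686. IVG day 6 had 1115, 1879 and 699, and IVG-NT day 6 had 877, 435 and 430. The rRNA-rich day 10 libraries lay above every other library. Of the genes tested, 29.0% had them above the rRNA-rich IVV library. The rRNA-poor day 10 libraries lay slightly above the rRNA-poor IVV libraries, as in 20.4% of the genes tested.

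Tet3 was higher in IVG than in IVV by 1.93 ± 0.78 on the log2 scale, 3.81-fold (adjusted p = 1), with overlap at IVV replicate 3. The rRNA-rich libraries differed 3.22-fold and the rRNA-poor ones 1.33-fold, and with the kind in the fit the difference was 1.25 ± 0.48. The call was lost without IVG replicate 1 (1.12), IVV replicate 2 (1.72) or IVV replicate 4 (1.73), in the rRNA-poor libraries alone (0.44) and with the replicate block over all 15 libraries (0.90). In IVG-NT the difference from IVV was 1.58 ± 0.77, and it was not called.

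Over time in NT-4 culture, Tet3 rose by 2.09 ± 0.78 on the log2 scale, 4.27-fold (adjusted p = 0.357). The rRNA-rich libraries differed 5.14-fold and the rRNA-poor ones 1.59-fold, and with the kind in the fit the difference was 1.78 ± 0.46. The call was lost without IVG-NT replicate 2 (1.30), without IVG-NT day 6 replicate 2 (1.86) or 3 (1.93) and without both shallow libraries (2.41). It was also lost by DESeq2's test and with DESeq2's size factors in edgeR (1.49 for both). In the rRNA-poor libraries alone the difference was 0.55, under the fold limit of the calls. In control culture the difference between days was 1.36 ± 0.77, and 1.10 with the replicate block in the culture groups, which made it a call (adjusted p = 1). On day 6, NT-4 and control cultures differed by -1.08 ± 0.76.

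Tet1 (chr10:62804570-62908996, minus strand), a TET enzyme known from pluripotent and germ cells, had 0, 1961 and 170 counts in IVG-NT day 6, or 0, 341 and 2.77 normalized CPM. The other 12 libraries lay between 0.978 and 16.7 normalized CPM. In that group only replicate 2 stood apart. The fitted log2 difference was 4.83 ± 1.90 against IVG day 6 (adjusted p = 0.386) and -4.65 ± 1.88 from day 6 to day 10 of NT-4 culture (adjusted p = 0.357). Without that library they were -1.42 and 1.56, neither of them called. With the replicate block in the culture groups the first was 3.72, and with the kind in the fit it was 3.99, neither of them called. DESeq2 gave Tet1 no P. The same library had the highest Zfp57 (2389) and the highest sum of granulosa and cumulus markers (1507, with 7 of the 14 detected), and the part of the latter was not tested.

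Tet2 (chr3:133463679-133545139, minus strand), a TET enzyme best known from blood cells, ranged from 0 to 31.7 normalized CPM. Its 4 rRNA-rich day 10 libraries had 10.3 to 31.7, above the 1.88 of the rRNA-rich IVV library, as in 29.0% of the genes tested. The rRNA-poor libraries had 3.46 and 2.48 in IVV and 3.24 and 2.76 at day 10. It was called by edgeR in no comparison and by DESeq2 for IVG against IVV (log2 difference 2.73 ± 1.25, adjusted p = 1). Gm42567, an antisense gene that shares 43 exon bases with Tet2, had 22.6% of its counts. The other copies and overlapping genes of the 10 were small, at most 2.21% of the counts of their partner (Dnmt3bos for Dnmt3b), with Dppa3-ps at 0.283% of Dppa3, Dnmt3aos at 0.420% of Dnmt3a, Dnmt3l-ps1 at 0.151% of Dnmt3l and Dnmt3a-ps1 at 0.

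**Figure D4:**
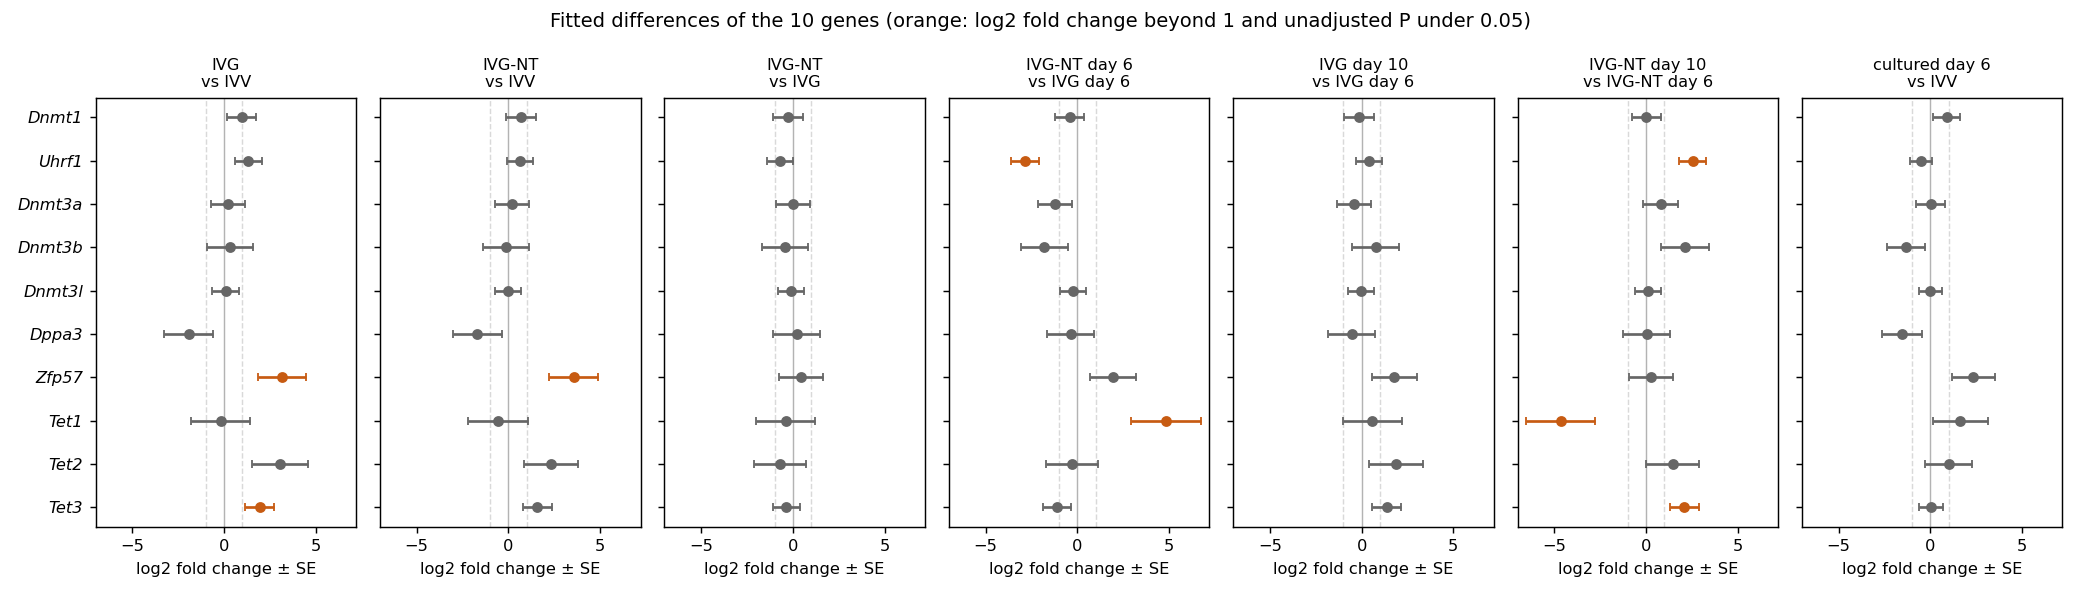
Fitted log2 fold change with its SE of the 10 genes in the 7 comparisons of groups, orange where the change is beyond 1 (dashed lines) and the unadjusted P is under 0.05. Every bar of IVG-NT against IVG crosses 0 or lies close to it, and the widest bars are those of Tet1.

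The median log2 difference of the 10 genes was 0.63 for IVG against IVV, where that of all genes tested was -0.20, and 0.42 for IVG-NT against IVV, where it was -0.19. It was -0.30 for IVG-NT against IVG beside 0.01, and -0.38 on day 6 beside -0.27. Between days it was 0.50 beside 0.05 in control and 0.53 beside 0.40 in NT-4 culture. For the day 6 cultures against IVV it was 0.02 beside -0.37. DESeq2's size factors brought the median of all genes for NT-4 culture over time from 0.40 to 0.04 and on day 6 from -0.27 to 0.0. With them, 1867 genes were called higher and 679 lower on day 6 in place of 1416 and 1014, and 713 and 1994 over time in NT-4 culture in place of 1146 and 1515.

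The pathway around the 10 genes was read from a list of 60 partners, of which 58 were tested. None was called in IVG or IVG-NT against IVV, where the lowest adjusted p was 1. Over time in control culture 3 were higher and none lower (5.17% of the partners, beside 2.90% of all genes). Among them were Gadd45g, a stress gene linked to demethylation (0, 4 and 38 counts at day 10), and Zbtb4, a reader of methylated DNA (0, 30 and 33), both with 0 counts in all 3 day 6 libraries. Both rest on few counts.

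On day 6, 3 partners were higher with NT-4 and 1 lower (6.90% of the partners, beside 11.6% of all genes). The glycosylase gene Tdg, whose product removes oxidized cytosine, had 193, 0 and 3 counts with NT-4 and none in IVG day 6. Lig1, a DNA ligase, was higher by 2.34 ± 0.92 on the log2 scale, with 256, 1083 and 507 counts against 524, 253 and 1086 in libraries of unequal depth. Smug1, another glycosylase, differed by -2.89 ± 1.04 with no overlap, with 42, 8 and 1082 counts against 1626, 1711 and 3545. Over time in NT-4 culture 6.90% of the partners were called, beside 12.7% of all genes. Smug1 was higher there by 3.21 ± 1.05 and 3 partners were lower, among them Lig1 (-2.23 ± 0.92) and Dmap1 (-1.55 ± 0.73). These 2 comparisons share the IVG-NT day 6 libraries.

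Against IVV, 2 partners were higher in the day 6 cultures and 5 lower (12.1% of the partners, beside 7.90% of all genes). Ogt, which adds GlcNAc and binds TET proteins, was higher by 2.08 ± 0.92 on the log2 scale. Gadd45g had 86, 116 and 83 counts in IVV and 15 in 1 of the 6 day 6 libraries, with none in the other 5. Zbtb4 had 40, 0 and 11 counts in IVV and Idh2 180, 22 and 122, with 0 in 6 and 4 of the day 6 libraries. Cxxc5, a CXXC zinc finger gene, was also lower. The lowest adjusted p of any partner in the 7 comparisons was 0.357.

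Genes outside the list that followed each member most closely over the 15 libraries were found by Pearson's r of log2 normalized CPM, as a description without a test, since all share the same libraries and kinds. Dppa3 was most like Sub1 (r = 0.989), which stayed first after the mean of each kind had been subtracted (r = 0.914). Dnmt1 was most like Ncor1 in both (0.984 and 0.806), Tet1 like Mbtps1 (0.963 and 0.967), Tet2 like Casz1 (0.929 and 0.943) and Zfp57 like Med23 (0.936 and 0.897). The nearest gene changed once the kinds were centred for Uhrf1 (Nek10 at 0.973 and then Fbxo10 at 0.989), Tet3 (5830462I19Rik at 0.959 and then Cit at 0.967), Dnmt3a (Ampd2 at 0.962 and then Smap2 at 0.924), Dnmt3b (Clstn1 at 0.969 and then Polr3c at 0.978) and Dnmt3l (Ttc5 at 0.949 and then Pdia6 at 0.959). The closest companion of these 5 genes thus differed with the centring.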

How the data were processed

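Oocyte RNA was amplified with SMART-Seq2, primed on poly(A), without molecular identifiers. The authors trimmed reads, aligned them to mm10 with HISAT2 and deposited counts per Ensembl gene without normalization. FastQC, HISAT2 and edgeR stand in the submitters' processing notes, and the counter, annotation and strand setting of these counts are not given in the sources used here. The deposited counts equalled the like-named columns of a table of the whole series in all 15 libraries, so that table was not used. Symbols, positions and exon lengths came from GENCODE vM21 on GRCm38, which named 99.5% of the identifiers.

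Raw counts entered edgeR 4.0.16 (R 4.3.3). The filterByExpr function kept genes at a minimum count of 10, TMM factors scaled the libraries, and 1 quasi-likelihood fit of all 15 libraries with 5 group means gave every test. A call is a log2 fold change beyond 1 with an unadjusted P under 0.05, the study's threshold, and adjusted p is Benjamini-Hochberg over all 21009 genes tested. Normalized CPM use TMM factors, and FPKM use all counts of a library and the union of a gene's exons. Alternatives were DESeq2 1.42.0 and its size factors, no filter on low counts, only the groups compared, the kind of library as a covariate, each kind alone, CT010467.1 left out, the replicate number as a block, and each library left out. The block in the culture groups alone and the fit without both shallow libraries were added after seeing the data. The fit was tested on simulated data.

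Every member is named. Of the partners, up to 3 called genes per direction with the lowest P are named in each comparison, and for each member the gene with the highest r. Results of some called partners are not reported here. The members, lists and the 5% limit on CT010467.1 that divides the kinds were chosen with earlier results of these data known. Deviations of same-numbered libraries from their group means correlated at 0.61, 0.672 and 0.872 between IVG-NT and IVG. The values were 0.46, 0.289 and 0.707 between IVG at both days and 0.137, 0.124 and 0.418 on day 6. By the label numbers, IVV gave -0.711 to -0.138 against the cultures. For the NT-4 groups over time 1 of the 3 correlations was 0.0993, under the limit of 0.1. Replicate 3 is rRNA-poor in every culture group and rRNA-rich in IVV. Libraries of unlike number were not compared, so a shared experiment and the kind of library cannot be told apart by these values. Whether libraries stem from separate cultures or mice is given only as replicated experiments, so P measures the spread between these libraries, and limits for a count of 0 cover counting error alone.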

Additional observations from a re-analysis of the deposited data

Results flagged for a closer look

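By edgeR, the test of the NT-4 difference between days called 2 of the 10 genes, beside 6.37% of all genes tested. DESeq2 called 0 of the 10 and gave Tet1 no P. For Uhrf1 the difference at day 10 minus that at day 6 was 2.14 on the log2 scale (adjusted p = 0.779). Each NT-4 library was lower than the control of its number at both days, with fitted log2 differences of -2.84 at day 6 and -0.70 at day 10. The difference between days was 1.20 and not called without both shallow IVG-NT day 6 libraries. For Tet1 the value was -5.24 (adjusted p = 0.771), and it rested on IVG-NT day 6 replicate 2, without which it was 1.0 and not called. With the replicate number as a block in the culture groups the values were 2.0 and -4.19, neither of them called.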

How the results depend on the processing

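Of 276 alternative values for the 16 log2 differences followed, 185 kept direction and call, 64 lost the call, 18 gained it and 9 changed sign. Dppa3 over time in control culture ranged from -2.61 (without IVG replicate 3) to 0.97 (without IVG day 6 replicate 3). Tet1 changed sign on day 6, over time in NT-4 culture and in the difference of NT-4 effects. In rRNA-poor libraries alone it was -0.82 on day 6 and 0.05 for the difference, and without both shallow libraries the values were -0.47, 0.61 and 0.04. Leaving out single libraries gave -1.42 to 5.40, -5.26 to 1.56 and -5.82 to 1.0, each sign change without IVG-NT day 6 replicate 2. The cause was not tested.

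Counts of called members are given in the order IVG against IVV, IVG-NT against IVV, IVG-NT against IVG, NT-4 on day 6, control over time, NT-4 over time, day 6 against IVV and the difference of NT-4 effects, where they were 2, 1, 0, 2, 0, 3, 0 and 2. With only the groups compared, 4 were called in the first and 2 in the second, beside 970 of 18382 and 737 of 17959 genes. In the last it was 1, beside 935 of 19272. With no filter on low counts, 3 were called in the second, 2 in control over time and 2 in day 6 against IVV. Of the 36497 genes tested there, 1580, 808 and 4303 were called. DESeq2 called 1 over time with NT-4, 1 in day 6 against IVV and 0 in the last, with no P for Tet1. Of 21009 genes it called 2739, 1468 and 1227. Its size factors gave 1 in the last, beside 1414 of 21009. The kind as a covariate gave 1 on day 6, 2 in control over time and 1 in the last, beside 3312, 1022 and 1882 of 21009 genes. The rRNA-rich libraries gave 5 on day 6, 2 in control over time and 1 in the last, beside 4630, 454 and 3021 of 25589 genes. Their counts against IVV are left out, since only 1 IVV library was rRNA-rich. In the rRNA-poor libraries alone each culture group keeps 1 library, which that fit assumes to vary like the IVV pair. Its counts of called members are therefore not given. Without both shallow libraries, 2 were called in the second, 0 on day 6, 1 with NT-4 over time and 0 in the last.

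The replicate block over all 15 libraries gave 1 in the first, 1 on day 6, 1 in day 6 against IVV and 0 in the last. Of 21009 genes it called 534 in the first, 556 in the second and 1289 in day 6 against IVV. Its 1 call in each of the first and second was Dppa3, lower (-2.97 and -2.80). Dppa3 stood in place of Tet3 (0.90) and Zfp57 (1.16) in the first and of Zfp57 (1.13) in the second. The IVV numbers were taken from the labels, and replicate 3 is rRNA-rich in IVV and rRNA-poor in the cultures. In the culture groups alone the block gave 1 on day 6, 2 in control over time and 0 in the last. The block moved no other count of members by over 1.5 times. Over all 15 libraries it moved the calls over all genes from 2430 to 1138 on day 6, from 261 to 127 for IVG-NT against IVG and from 1339 to 703 for the difference. In the culture groups alone, with 19272 genes tested, these were 1411, 144 and 770, and control over time had 484. The difference had 935 there without the block. Over all alternatives the calls among all genes ranged, in the same order, from 199 to 2433 (579 in the report), 235 to 2586 (691), 28 to 1856 (261), 451 to 6817 (2430), 311 to 2410 (609), 657 to 7211 (2661), 845 to 5307 (1659) and 534 to 4956 (1339). Leaving out single libraries gave 0 to 5, 0 to 3, 0, 1 to 4, 0 to 1, 1 to 4, 0 to 3 and 0 to 3. The 5 arose without IVG replicate 3, where 1065 of 23374 genes were called. The highest counts involving day 6 with NT-4 arose without its replicate 3, its only deep library. In that fit 6817 of 23447 genes were called on day 6, in place of 2430 of 21009.

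Partners called over the 7 comparisons were 19, with 11 for only the groups compared, 34 with the kind, 41 and 60 in rRNA-rich and rRNA-poor libraries alone, 7 with the replicate block and 11 to 55 without single libraries. Among all genes, 261 to 2661 of 21009 were called per comparison in the main fit. These were 427 to 3555 with the kind and 127 to 1309 with the replicate block. In rRNA-rich libraries alone they were 28 to 4986 of 25589, and for only the groups compared 66 to 970. In rRNA-poor libraries alone each culture group keeps 1 library, and calls among all genes rose there in every comparison. Whether partners moved more than other genes was not tested. CT010467.1 left out moved no count by over 1.5 times. Depth limits Dnmt3b, Tet1 and Tet2, which had 0 to 53 counts in some shallow libraries.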
